A study of Homo sapiens with 21 samples.

Results

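This report compares gene expression between senescent fibroblasts given siRNA against both CDK4 and CDK6 and senescent fibroblasts given siRNA against CDK4. The 3 libraries of the dual knockdown (CDK4 and CDK6) were set against the 3 libraries of the CDK4 knockdown, 6 of the 21 libraries of the series. No control library entered this comparison. Genes with a normalised read count of at least 10 in at least 3 of the 6 libraries were kept, which were 11097 of the 16383 genes listed. IMR90, the cells used, are an established fibroblast line from human lung. Both groups were irradiated to bring on senescence and received siRNA (5 nM) on day 4 and again on day 7. RNA was taken on day 10. They share the irradiation and the CDK4 siRNA, and differ in the CDK6 siRNA. The other groups, of 3 libraries each, were proliferating cells without irradiation, and irradiated cells with the non-targeting siRNA NT3 or NT4 or with siRNA against CCND1 or against CDK6 alone. The labels do not say whether 5 nM was the dose of each siRNA or of the mixture, nor that the CDK4 arm received a second siRNA. Loss of CDK6 and the presence of a second siRNA therefore cannot be told apart here. The labels number the replicates but do not say whether they were separate cultures, so p-values measure the spread between these libraries. In bulk RNA, fewer cells with a transcript and less transcript per cell cannot be told apart.

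CDK4 and CDK6 are kinases that bind the D-type cyclins and phosphorylate the retinoblastoma protein RB and its relatives p107 and p130. Unphosphorylated RB holds back the E2F transcription factors, which drive genes of DNA replication, while p107 and p130 in the DREAM complex hold back cell cycle genes, mitotic ones included. INK4 proteins, such as p16, block both kinases. Senescent fibroblasts have left the cell cycle for good, and many also secrete cytokines, chemokines and proteases, a state called the senescence-associated secretory phenotype (SASP), with NF-kB factors and interferon signalling among its known drivers.

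Several gene groups that moved have known promoter elements, and 6 promoters are shown to place those elements beside the values below. The values of ACTG2 itself are not given. These 6 were picked among members called as changed that carry the element of their list, so its presence there was fixed in advance. They are stretches of 150 bases before the gene start, read 5′ to 3′ on the gene's strand from RefSeq (GRCh38.p14), with matches to the element in capitals. Only the element named for each gene is marked.
DTL, chr1:212035598-212035747, plus strand, E2F site: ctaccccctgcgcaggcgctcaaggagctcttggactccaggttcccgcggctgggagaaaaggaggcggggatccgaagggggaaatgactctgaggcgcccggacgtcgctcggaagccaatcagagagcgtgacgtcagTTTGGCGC
MKI67, chr10:128126424-128126573, minus strand, CHR element and CCAAT box: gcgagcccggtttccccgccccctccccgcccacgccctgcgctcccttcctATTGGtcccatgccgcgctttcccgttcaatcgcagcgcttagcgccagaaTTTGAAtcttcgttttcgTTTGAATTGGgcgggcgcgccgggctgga
DLGAP5, chr14:55191586-55191735, minus strand, CHR element and CCAAT box: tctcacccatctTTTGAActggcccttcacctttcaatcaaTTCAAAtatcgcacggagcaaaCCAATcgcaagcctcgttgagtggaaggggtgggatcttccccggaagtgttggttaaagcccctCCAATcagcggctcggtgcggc
OAS3, chr12:112938324-112938473, plus strand, interferon-stimulated response element: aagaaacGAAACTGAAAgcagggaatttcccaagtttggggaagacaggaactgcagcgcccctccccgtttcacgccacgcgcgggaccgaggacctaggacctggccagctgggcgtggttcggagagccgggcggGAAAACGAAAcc
CXCL5, chr4:73998678-73998827, minus strand, NF-kB site: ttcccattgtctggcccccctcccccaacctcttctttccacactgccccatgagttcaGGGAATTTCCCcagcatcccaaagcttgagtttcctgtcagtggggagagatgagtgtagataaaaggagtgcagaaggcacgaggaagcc
ACTG2, chr2:73892858-73893007, plus strand, CArG box: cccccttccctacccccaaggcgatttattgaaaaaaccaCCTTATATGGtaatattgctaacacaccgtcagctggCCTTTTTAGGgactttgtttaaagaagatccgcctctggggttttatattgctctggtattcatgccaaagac

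For all lists the window searched was 300 bases, 250 before and 50 after the start, on both strands, and 9061 of the 11097 genes had a promoter in the table. An E2F site was taken as TTTGGCGC, TTTCCCGC, TTTGCCGC or TTTCGCGC, and stood in 51% of 51 S phase promoters and in 5.42% of all 9061. The CHR element, TTTGAA, stood in 68.5% of 54 G2 and mitosis promoters against 9.91% of all, and the CCAAT box, CCAAT, in 66.7% against 36.6%. The interferon-stimulated response element, GAAA followed by any 2 bases and GAAA again, stood in 69.2% of 39 promoters of interferon-stimulated genes against 2.79% of all. An NF-kB site was found in 26.9% of 26 promoters of SASP cytokines and chemokines against 6.36% of all, and a CArG box in 36.8% of 19 contractile promoters against 1.09%. The CHR and CCAAT matches can share bases, as they do in MKI67, and the palindromic NF-kB and CArG matches were counted on either strand. Some elements were also common in other lists. A CCAAT box stood in 83.3% of 18 cholesterol synthesis promoters, but in 15.8% of 19 lysosomal ones. The interferon-stimulated response element stood in 60% of 10 MHC class I promoters and an NF-kB site in 30%, against 0% and 10.5% of the lysosomal ones. These shares describe letters in a window and are not a test of binding.

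The 6 libraries were even in depth. CDK4 knockdown had 15433553 to 16777413 reads in listed genes and dual knockdown 15466207 to 17044175. The 10 most abundant genes took 7.73 to 7.95% of reads in CDK4 knockdown and 8.52 to 9.61% in dual knockdown. The summed normalised counts also stood higher in dual knockdown (16888027 to 17433914 against 15664534 to 15889335), while the median log2 difference over all genes tested was 0.01. Fibroblast markers were abundant in both arms: 14 of the 14 had a mean of at least 10 in CDK4 knockdown and 13 of the 14 in dual knockdown. Of 11 epithelial markers 4 reached that mean in either arm, and KRT5 and SFTPC had no read in any of the 6 libraries. Of 7 endothelial markers 3 and 2 reached it, and of 9 immune markers 3 and 2, with CD3E and MS4A1 without a read in both arms. The summed value of the immune list was 1520 to 1624 in CDK4 knockdown and 940.005 to 1014 in dual knockdown, and that of the endothelial list 2223 to 2515 and 3443 to 3694. These sums were carried by CD68 and TEK, which are described with the markers at the end, and their part in the results below was not tested.

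The targets were examined first. CDK6 (ENSG00000105810, GRCh38.p14 chromosome 7, 92604921 to 92836573) had normalised counts of 6397, 5163 and 6324 in CDK4 knockdown and of 998, 930 and 975.1 in dual knockdown. The arms did not overlap, and 16.2% of the CDK6 level remained. The log2 difference was -2.62 (SE 0.07, 95% interval -2.77 to -2.46, n = 3 per arm, limma adjusted p = 3.8e-13). The exact permutation p was 0.1, two-sided, the smallest that 20 splits of 3 against 3 can give. CDK4 (ENSG00000135446, chromosome 12, 57747727 to 57752310) was at 105.6, 109.9 and 108.9 in CDK4 knockdown and at 115, 123 and 115 in dual knockdown, against 1248 in the mean of the 6 non-targeting libraries. Its libraries did not overlap, but the difference of 0.12 (SE 0.14, 95% interval -0.17 to 0.40) did not pass the limma threshold (adjusted p = 0.529; exact permutation p = 0.1). CDK4 was thus similarly low in the 2 arms, within that interval, and CDK6 differed.

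By limma 4143 of the 11097 genes (37.3%) passed an adjusted p of 0.05. Of these 2286 (20.6% of genes tested) were higher and 1857 (16.7%) lower in dual knockdown. The libraries of the arms did not overlap at 5270 genes (47.5%). The large changes were mostly falls: beyond 1 on the log2 scale 479 genes were lower and 70 higher. The log2 scale is that of the value plus 1 throughout, which understates the change of genes with few reads.

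Among well expressed genes the largest fall was in CXCL8, the neutrophil chemokine interleukin 8. It was at 2721, 3744 and 3506 in CDK4 knockdown and at 234, 263 and 390 in dual knockdown, and so kept 8.89% of its level (log2 difference -3.51, SE 0.14, limma adjusted p = 2.2e-11). The next falls were in genes of dividing cells and of the interferon response. BIRC5, the survivin subunit of the chromosomal passenger complex, went from 547 to 650 in CDK4 knockdown to 44.0 to 69.9 (-3.35), RRM2, a subunit of ribonucleotide reductase, from 1471 to 1693 to 136 to 179 (-3.33), and MKI67, which encodes the Ki-67 protein of cycling cells, from 870 to 1076 to 86.1 to 111.1 (-3.31). OAS2, OAS3 and MX1, antiviral proteins that interferon induces, fell by 3.24, 3.04 and 2.80. KIF20A and CENPF, which act in cytokinesis and at the kinetochore, also fell (-3.07 and -2.86), as did TOP2A, which untangles DNA (-2.78), and FOXM1, a transcription factor of mitotic genes (-2.51). In each of these genes all 3 dual libraries lay below all 3 CDK4 libraries, which the rule for naming the largest changes required.

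The rises were smaller. IRAG1, a substrate of the cGMP-dependent kinase in smooth muscle, was at 549, 582 and 635 in CDK4 knockdown and at 1691, 1849 and 1943 in dual knockdown (log2 difference 1.63, SE 0.07, limma adjusted p = 4.46e-11). LMOD1, an actin nucleator of smooth muscle, was at 569, 680 and 748 and then at 1854, 2058 and 1941 (1.56). Neither gene overlapped between the arms, again a condition of being named here. GALNT15, an enzyme of O-glycosylation, rose by 1.51, CEMIP, which takes part in hyaluronan breakdown, by 1.48, and ANO1, a calcium-activated chloride channel, by 1.43. LRRC2 (1.38), LBH (1.35), GFRA1 (1.24), GPRC5A (1.23), OXTR (1.23) and VSIR (1.23) followed, where GFRA1 is a receptor of GDNF and OXTR the oxytocin receptor. CD99 also met the rule for the largest rises (2.61, limma adjusted p = 0.0331), but it rested on dual replicate 3, at 1713, while the other two dual libraries held 50.1 and 36.4 and CDK4 knockdown 13.3 to 32.5. Without that library its difference was 0.84 (adjusted p = 0.0654), and without CDK4 knockdown replicate 3 it was 2.22 (adjusted p = 0.106).

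**Figure D1:**
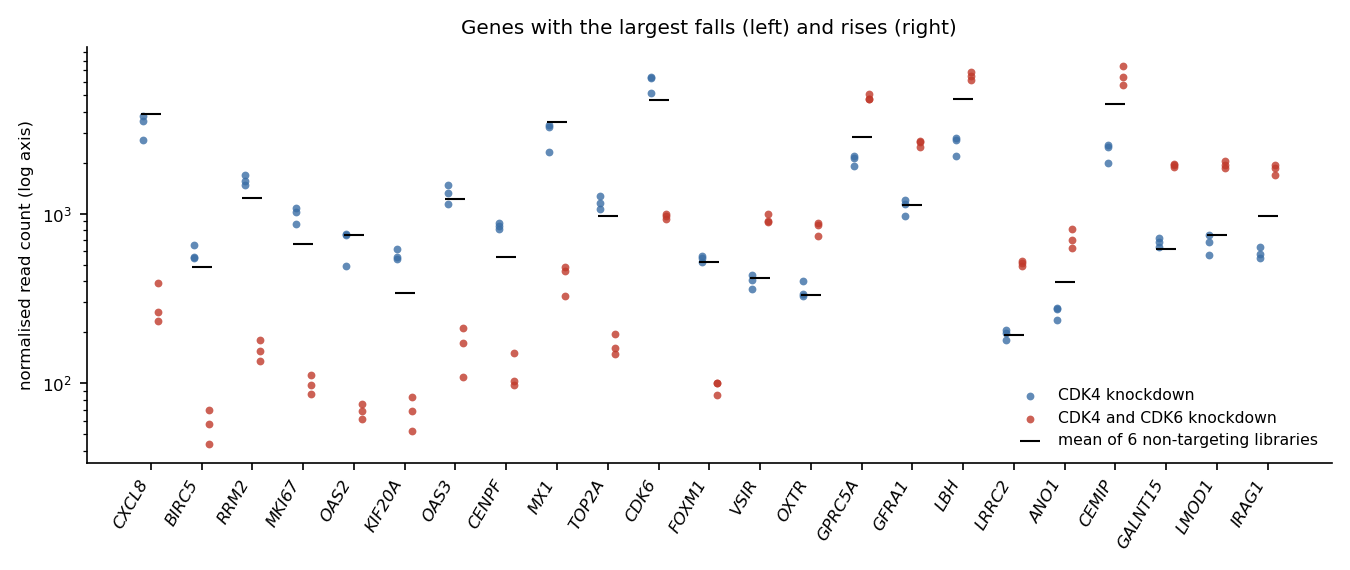
Normalised read count (log axis) of the genes with the largest falls, at left, and rises, at right, in the 3 CDK4 knockdown libraries (blue) and the 3 dual knockdown libraries (red), with the mean of 6 non-targeting libraries as a black bar. CD99 is left out; CXCL8 drops from 2721 to 3744 in CDK4 knockdown to 234 to 390 in dual knockdown, and IRAG1 climbs from 549 to 635 to 1691 to 1943.

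Of the 30 genes listed for the CDK4/6 pathway, 27 were tested; CDKN1C and CDK7 were below the filter and E2F7 is not analysed here. By limma 4 rose (14.8%, against 20.6% of all genes) and 14 fell (51.9%, against 16.7%), with a median of -0.45, or -0.25 over members with a mean of at least 100. The D-type cyclins, the activating partners of both kinases, were all higher. CCND2 was at 2712, 2876 and 2762 in CDK4 knockdown and at 4287, 4707 and 4920 in dual knockdown (0.73, SE 0.06, limma adjusted p = 3.01e-08). CCND3 rose by 0.26 (adjusted p = 0.00131) and CCND1 by 0.22 (0.00691). CCND1, with 45723 to 49482 against 52700 to 57566, was not past the threshold in a fit of all 7 groups (adjusted p = 0.0872), and quantile normalization gave -0.06.

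The inhibitors CDKN2C, CDKN2B, CDKN2A and CDKN1A moved the other way. CDKN2C, which encodes the INK4 protein p18, was at 116, 84.4 and 94.7 in CDK4 knockdown and at 31.0, 25.4 and 37.1 in dual knockdown, so that 31.7% remained (-1.63, SE 0.21, limma adjusted p = 1.18e-05). CDKN2B (p15) was at 516, 426 and 492 and then at 301, 278 and 260 (-0.77), and CDKN2A (p16 and ARF) at 187, 211 and 174 and then at 134, 134 and 139 (-0.49, adjusted p = 0.00501). The arms did not overlap at CDKN2C, CDKN2B and CDKN2A, as at 47.5% of all genes. They did overlap at CDKN2D, which encodes another INK4 protein (126 to 152 against 97.2 to 143). CDKN2B lies inside an antisense gene, and whether reads were counted by strand is not given in the sources used here, so its value is uncertain. CDKN1A (p21), the p53-induced inhibitor, fell from 20633 to 21009 to 17118 to 18429 (-0.25, adjusted p = 0.000981). CDKN2D (-0.25, adjusted p = 0.232) and CDKN1B (0.12, 0.279) did not pass.

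Of the pocket proteins RBL1 (p107), itself an E2F target, fell from 138 to 163 to 65.1 to 86.3 (-1.01, SE 0.15, limma adjusted p = 6.57e-05), while RB1 (-0.17, adjusted p = 0.0802) and RBL2 (p130; 0.03, 0.747) did not pass. RB1 did pass without CDK4 knockdown replicate 2 (-0.24, adjusted p = 0.0153). Of the E2F genes, E2F1, an activator, went from 252, 208 and 214 to 67.1, 73.9 and 81.9 (-1.58, adjusted p = 1.48e-07). E2F2 fell by 2.94 from 16.1 to 22.6 to between 0 and 4.41, a size that so few reads leave imprecise. E2F8, with 12.3 to 15.7 against 0 to 8.01, passed (-2.04, adjusted p = 0.0256) but lost the call when any CDK4 knockdown library or dual replicate 3 was left out, and with quantile normalization (-1.27, adjusted p = 0.109). E2F2 and E2F8 met the filter only through their CDK4 knockdown libraries, so their falls are tied to that filter. E2F3, E2F4 and E2F5 did not pass. E2F5 did without dual replicate 3 (-0.60, adjusted p = 0.0385).

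Downstream of RB, CCNE2, a cyclin of S phase entry, was at 117, 92.3 and 105.1 in CDK4 knockdown and at 19.0, 8.83 and 28.4 in dual knockdown (-2.55, SE 0.31, limma adjusted p = 6.72e-06), while CCNE1 did not pass (-0.29, adjusted p = 0.153). Their kinase CDK2 fell from 497 to 513 to 252 to 328 (-0.85), and CDC25A, the phosphatase that activates it, from 153 to 200 to 68.8 to 81.7 (-1.26). The mitotic kinase CDK1 was at 269, 259 and 237 and then at 39.0, 32.0 and 39.3, which left 14.4% (-2.76, adjusted p = 5.81e-10). CCNA2, the cyclin of S phase and G2, kept 23.7% (-2.11). SKP2, which marks p27 for breakdown, was the gene downstream of RB on the list that rose, from 302 to 363 to 415 to 502 (0.48, adjusted p = 0.000939).

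**Figure D2:**
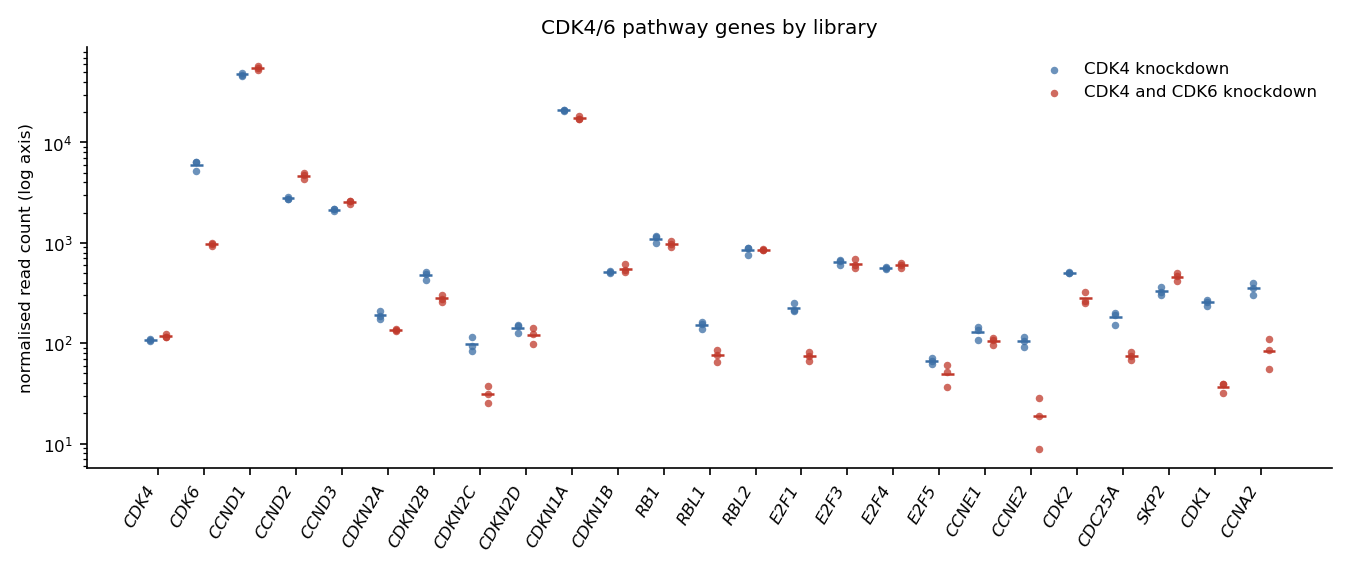
Normalised read count (log axis) of 25 CDK4/6 pathway genes in each CDK4 knockdown library (blue) and dual knockdown library (red), with short bars for the means of 3 libraries. E2F2 and E2F8, which have libraries at 0, are left out; CDK1 drops from 237 to 269 to 32.0 to 39.3 while RBL2 overlaps between the arms.

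Genes of DNA replication fell nearly throughout. All 60 genes on the S phase list were tested; 58 fell and 0 rose (96.7%, against 16.7% of all genes lower), with a median of -1.09. Next to RRM2, the largest falls were in CDC45, a subunit of the replicative helicase, which went from 82.2, 101.1 and 71.0 to 11.01, 4.41 and 14.2 (-3.09, SE 0.34, limma adjusted p = 2.19e-06), and in DTL, a substrate receptor for PCNA-coupled protein breakdown, from 196, 158 and 181 to 21.0, 25.4 and 17.5 (-3.02). CLSPN (claspin), a mediator of the replication checkpoint, fell from 195 to 235 to 22.9 to 31.0 (-2.93). At each of these genes all dual libraries lay below all CDK4 libraries. PRIM2, a primase subunit and the most abundant member without a call, was at 331 to 350 and 286 to 363 (-0.07, adjusted p = 0.632).

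The G2 and mitosis genes fell the most as a group. Of 64 tested, 63 fell and 0 rose (98.4%, against 16.7% of all genes lower), with a median of -2.30. BUB1, a kinase of the spindle checkpoint, was at 363, 288 and 342 in CDK4 knockdown and at 21.0, 27.6 and 54.6 in dual knockdown (-3.34, SE 0.25, limma adjusted p = 1.65e-08). DLGAP5, a spindle protein whose promoter is shown above, was at 382, 312 and 290 and then at 27.0, 30.9 and 39.3 (-3.31, SE 0.17, adjusted p = 2.53e-10). BIRC5, MKI67, BUB1 and DLGAP5 kept 9.79%, 9.97%, 10.4% and 9.89% of their level in CDK4 knockdown. The member without a call was CDC25B, a phosphatase of mitotic entry, at 387 to 532 and 438 to 470 (-0.03, adjusted p = 0.831). Of 65 listed genes in the table, SPC25 was below the filter, and 5 of the 70 genes on the list are not analysed here.

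Of 19 genes of chromatin and the nuclear envelope, 12 fell and 2 rose (63.2% and 10.5%, against 16.7% and 20.6% of all genes), with a median of -0.31. LMNB1, the lamin whose loss marks senescent cells, was at 176, 202 and 176 in CDK4 knockdown and at 37.0, 30.9 and 24.0 in dual knockdown (-2.57, SE 0.18, limma adjusted p = 1.25e-08). Its arms were far apart, though CDK4 knockdown was itself far below proliferating cells, where the mean was 2580. HMGB2 (-1.47), TMPO (-0.97) and HMGA2 (-0.94), which encode 2 chromatin-bending proteins and a lamina-associated protein, also fell. LMNA, the source of lamins A and C, did not pass (0.02, adjusted p = 0.781), and quantile normalization gave -0.16 (adjusted p = 0.0225).

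Interferon-stimulated genes were lower in dual knockdown. Of 47 tested, 41 fell and 0 rose (87.2%, against 16.7% of all genes), with a median of -1.53. IFI44L was at 365, 527 and 542 in CDK4 knockdown and at 39.0, 36.4 and 36.03 in dual knockdown, which left 7.77% (-3.63, SE 0.15, limma adjusted p = 3.32e-11). OAS1, a sensor of double-stranded RNA, was at 230, 396 and 342 and then at 21.0, 25.4 and 45.9 (-3.39). The arms were separate at both genes, although CDK4 knockdown replicate 1 was the lowest of its arm. CMPK2 (-3.88) and RSAD2 (-3.53), neighbouring genes induced by interferon, fell as much; their annotated gene bodies overlap, so their values are uncertain. OAS2 and OAS3 are paralogs of OAS1, and how shared reads were assigned is not given in the sources used here. LGALS3BP, a secreted glycoprotein, was the most abundant member without a call (4390 to 5411 against 4222 to 4954; -0.13, adjusted p = 0.169), and it passed without CDK4 knockdown replicate 1 (-0.21, adjusted p = 0.0307).

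The upstream signalling genes moved less. Of 24 tested, 11 fell and 2 rose (45.8% and 8.33%, against 16.7% and 20.6% of all genes), with a median of -0.21. IFIH1, the RNA sensor MDA5, fell from 348 to 550 to 92.1 to 135 (-2.12, SE 0.17, limma adjusted p = 4e-08), DHX58 (LGP2) by 1.23, SAMHD1, a dNTP hydrolase, by 1.06, and the DNA sensor CGAS from 73.9 to 96.4 to 38.2 to 51.9 (-0.90). The sensors among them are also induced by interferon. STAT3 did not pass (-0.04, adjusted p = 0.559), but did with quantile normalization (-0.14, adjusted p = 0.0285). The interferon gene IFNB1 was below the filter, and STING1 is not analysed here. Of 20 genes of MHC class I presentation only 12 were tested, and 8, among them HLA-C and TAP1, were below the filter. The counting of reads at these similar genes is not stated. Of the 12, 4 fell (33.3%, against 16.7% of all genes): PSME2 by 0.56, ERAP2 by 0.52, PSME1 by 0.28 and B2M by 0.23, and the last 2 lost the call in a fit of all 7 groups (adjusted p = 0.0912 and 0.0982). CALR, a chaperone, was at 21081 to 23185 and 23347 to 24897 (0.13, adjusted p = 0.06), and passed without CDK4 knockdown replicate 2 (0.17, adjusted p = 0.03).

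The cytokines and chemokines of the SASP were lower. Of 36 tested, 29 fell and 0 rose (80.6%, against 16.7% of all genes lower), with a median of -1.16. IL1RN, IL33, MIF and 5 CCL genes were below the filter. CSF3, the granulocyte growth factor, was at 34.5, 41.2 and 60.6 in CDK4 knockdown and at 0, 1.10 and 0 in dual knockdown, so the fitted difference of -5.14 (limma adjusted p = 7.73e-07) is imprecise. CSF3 met the filter only through its CDK4 knockdown libraries, so its fall is tied to that filter. IL1B, which feeds NF-kB signalling in senescent cells, was at 313, 382 and 385 and then at 27.0, 26.5 and 18.6 (-3.86, SE 0.17, adjusted p = 5.59e-11). It lay in the dual libraries at 6.68% of its level in CDK4 knockdown. CXCL5 was at 190, 252 and 202 and then at 14.02, 18.8 and 13.1 (-3.73), and CXCL2 at 65.3 to 101.1 and 1.001 to 15.5 (-3.58); both draw neutrophils, and CXCL2 shares much sequence with CXCL1 and CXCL3, so its value is uncertain. HGF, a growth factor, was the most abundant member without a call (5861 to 6598 against 6223 to 6836; 0.06, adjusted p = 0.396).

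NF-kB components and feedback genes fell as well: 19 of 27 fell and 1 rose (70.4% and 3.7%, against 16.7% and 20.6% of all genes), with a median of -0.76. PTGS2 (cyclooxygenase 2) was at 923, 1022 and 1088 in CDK4 knockdown and at 196, 211 and 211 in dual knockdown (-2.29, SE 0.08, limma adjusted p = 6.88e-12). TNFAIP3 (A20), a feedback inhibitor that NF-kB induces, was at 953, 1139 and 1192 and then at 230, 187 and 305 (-2.20). BIRC3 (-1.77) and ZC3H12A (-1.23), both induced by NF-kB, fell too. RELA, the p65 subunit itself, stood at 1880 to 1952 and 1843 to 2047 (-0.01, adjusted p = 0.94).

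Of 26 proteases and their inhibitors 14 fell and 7 rose (53.8% and 26.9%, against 16.7% and 20.6% of all genes), with a median of -0.19, or -0.35 with quantile normalization. SERPINB2, an inhibitor of plasminogen activators, fell from 1227, 1292 and 1408 to 278, 254 and 283 (-2.26, SE 0.08, limma adjusted p = 3.62e-12). STC1, the hormone stanniocalcin, fell from 8204 to 9009 to 2569 to 2888 (-1.67), and the matrix metalloproteases MMP1 (-1.60) and MMP3 (-1.35) fell too. TIMP1, an inhibitor of metalloproteases, did not pass (0.13, adjusted p = 0.124), but did without CDK4 knockdown replicate 2 (0.19, adjusted p = 0.0372) or dual replicate 3 (0.21, adjusted p = 0.0121).

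**Figure D3:**
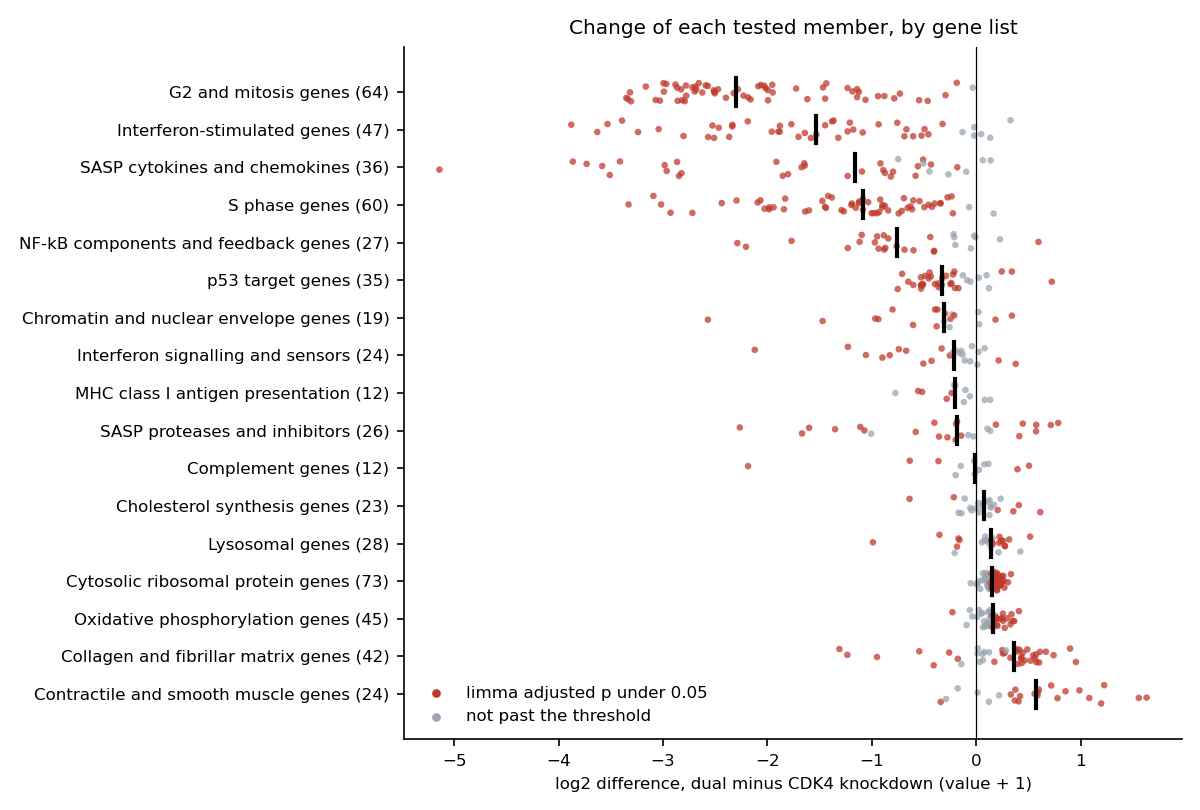
Log2 difference, dual minus CDK4 knockdown, of every tested member of 17 gene lists, with the number tested in brackets, red where the limma adjusted p was under 0.05 and grey otherwise; black bars are medians. Medians run from -2.30 for G2 and mitosis genes to 0.57 for contractile genes.

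Of 35 p53 target genes 26 fell and 3 rose (74.3% and 8.57%, against 16.7% and 20.6% of all genes), with a median of -0.33. MDM2, the ubiquitin ligase of p53, went from 5914, 5363 and 6097 to 3568, 3573 and 3929 (-0.65, SE 0.06, limma adjusted p = 1.96e-07). DDB2, a DNA repair factor, fell by 0.71 and the death receptor TNFRSF10A by 0.75, while the decoy receptor TNFRSF10D rose from 5575 to 6476 to 9175 to 10141 (0.72). CCNG1 did not pass (0.12, adjusted p = 0.0963). Of 12 complement genes tested 3 fell and 2 rose (25% and 16.7%), shares near the 16.7% and 20.6% of all genes, with a median of -0.02, or 0.01 without CDK4 knockdown replicate 2. C3, the central component, fell from 1473, 1887 and 1795 to 296, 399.5 and 446 (-2.18, adjusted p = 5.47e-10), and CD55, which protects cells from complement, by 0.64. C7 and CLU rose by 0.51 and 0.40, and CD59 did not pass (0.12, adjusted p = 0.059).

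Contractile genes rose together. Of 24 tested, 18 rose and 1 fell (75% higher, against 20.6% of all genes), with a median of 0.57, or 0.35 with quantile normalization. IRAG1, LMOD1 and OXTR, given above, led the list. LDB3, a Z-disc protein, had few reads (7.10 to 20.6 against 22.1 to 38.2; 1.197, limma adjusted p = 0.0192) and lost its call without CDK4 knockdown replicate 1 or dual replicate 1 or 3. TPM4, the most abundant member without a call, was at 26257 to 27321 and 28443 to 29813 (0.12, adjusted p = 0.0661), and quantile normalization gave -0.16 (adjusted p = 0.0147).

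Matrix genes rose more often than they fell: of 42 tested, 26 rose and 7 fell (61.9% and 16.7%, against 20.6% and 16.7% of all genes), so the share that fell was that of all genes. They had a median of 0.36, which quantile normalization reduced to 0.17. ELN (elastin) was at 117, 192 and 179 in CDK4 knockdown and at 287, 338 and 305 in dual knockdown (0.95, SE 0.15, limma adjusted p = 0.000116). POSTN (periostin) went the other way, from 3223, 2879 and 2848 to 1334, 1304 and 1166 (-1.23, adjusted p = 4.06e-10), as did COL5A3 (-0.95). COL10A1 had 13.3 to 14.7 against 3.31 to 7.64 (-1.31, adjusted p = 0.0302), and lost its call in 5 of 6 fits that left out 1 library (adjusted p = 0.055 to 0.0916), with DESeq2 (0.0749) and with quantile normalization (-0.71, 0.213). The fall of COL10A1 is also tied to the filter, which it met only through its CDK4 knockdown libraries. COL6A3 did not pass (0.12, adjusted p = 0.144). COL1A1, the most abundant collagen transcript, took 1.55 to 1.70% of the reads in CDK4 knockdown and 1.86 to 2.40% in dual knockdown.

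Of 14 fibroblast markers 7 rose and 1 fell (50% and 7.14%, against 20.6% and 16.7% of all genes). Their median was 0.17, or 0.03 with quantile normalization. Of these markers 5 are also on the list of matrix genes above, so the 2 lists are not separate. DCN (decorin) rose from 12573 to 14550 to 19958 to 24080 (0.74, SE 0.07, limma adjusted p = 3.5e-07), PDGFRB by 0.72 and THY1 by 0.66, while TBX4 fell by 2.02 from 14.2 to 22.6 to 3.00 to 4.41. VIM did not pass (0.01, adjusted p = 0.928). Of markers of other cells, KRT19 (0.73) and TEK (0.59) rose, CD68 fell from 1476 to 1588 to 918 to 990 (-0.68) and CSF1R, with 13.3 to 14.7 against 4.00 to 6.62, fell by 1.35 but lost its call when any 1 CDK4 knockdown library or dual replicate 1 was left out (adjusted p = 0.0544 to 0.0775), with DESeq2 (0.0571) and with quantile normalization (-0.755, 0.182). KRT18, VWF and CD14 did not pass, though KRT18 did without CDK4 knockdown replicate 2 (0.22, adjusted p = 0.019) or dual replicate 3 (0.22, adjusted p = 0.0171). TBX4 and CSF1R met the filter only through their CDK4 knockdown libraries, so their falls are tied to that filter. PTPRC, PECAM1 and CDH1, which define immune, endothelial and epithelial cells, were below the filter.

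Each library was also placed beside the other groups by its score for a list, the median over members of its log2 difference from the mean of the CDK4 knockdown libraries. For G2 and mitosis genes dual knockdown stood at -2.40 to -2.12, CDK6 knockdown at -1.34 to -0.95, the 6 non-targeting libraries at -0.37 to -0.19 and proliferating cells at 2.29 to 2.39. The dual libraries were thus the lowest of the irradiated groups. For S phase genes these scores were -1.11 to -1.01, -0.76 to -0.62, -0.14 to 0.02 and 1.91 to 2.01, in the same order. For SASP cytokines dual knockdown (-1.18 to -1.06) lay within the range of CDK6 knockdown (-1.49 to -0.90), and proliferating cells were far lower (-2.92 to -2.82). For interferon-stimulated genes dual knockdown was at -1.68 to -1.38 and CDK6 knockdown at -1.37 to -0.69. For contractile genes they were at 0.55 to 0.58 and 0.50 to 0.55, and for matrix genes at 0.26 to 0.46 and 0.03 to 0.11. These ranges are a description with no test.

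**Figure D4:**
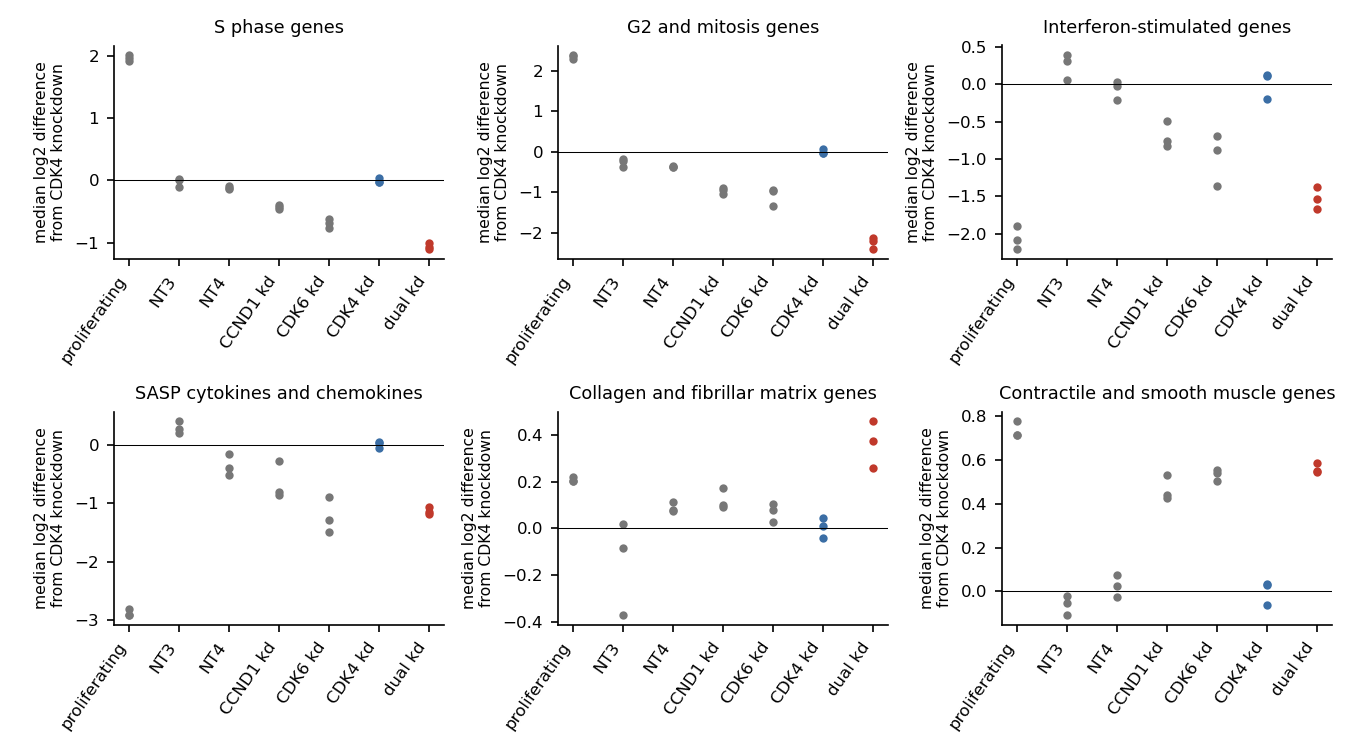
Score of each library (median over list members of the log2 difference from the mean of the 3 CDK4 knockdown libraries) for 6 gene lists in all 7 groups, 3 libraries each, with CDK4 knockdown in blue, dual knockdown in red and kd for knockdown. For G2 and mitosis genes the dual libraries, at -2.40 to -2.12, are the lowest of all groups, while for SASP cytokines they lie within the CDK6 knockdown range.

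Whether the change after CDK6 siRNA differed with and without the CDK4 siRNA was also tested. In CDK6 knockdown that siRNA took the place of a non-targeting one, whereas in dual knockdown it may have been added to the CDK4 siRNA. A second siRNA or a changed dose therefore cannot be told apart here from an effect of the CDK4 siRNA. The difference between dual and CDK4 knockdown was set against the difference between CDK6 knockdown and the mean of NT3 and NT4, in a fit of 15 libraries in which the 2 differences share no library. Of the 11097 genes, 396 (3.57%) passed the limma threshold: 255 (2.3%) were lower and 141 (1.27%) higher with the CDK4 siRNA than the change without it gave. The count depended on the control, with 1316 genes against NT3 alone and 284 against NT4 alone. It was 1143 without NT3 replicate 1, 249 when either CDK4 knockdown replicate 1 or CDK6 knockdown replicate 1 was left out, 256 without CDK4 knockdown replicate 3 and 261 without dual replicate 1.

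The mitotic genes stood out in this test. Of the 64 G2 and mitosis genes 49 passed, all lower (2.3% of all genes were lower), with 45 to 53 over 20 alternatives. Their median change was -2.30 with the CDK4 siRNA and -0.72 without it. MKI67 changed by -3.31 with and by -0.67 without, a difference of -2.64 (SE 0.22, limma adjusted p = 4.3e-06). For KIF20A the 2 changes were -3.07 and -0.59 (difference -2.48, SE 0.20, adjusted p = 4.3e-06), for CDK1 -2.76 and -0.83 (-1.93, SE 0.21, 4.7e-05) and for CCNA2 -2.11 and -0.42 (-1.68, SE 0.29, 0.0029). Of the 60 S phase genes 16 passed, all lower (10 to 25 over the alternatives), with medians of -1.09 and -0.57. RRM2 differed by -2.00 (adjusted p = 5.2e-06), and RBL1, at -1.01 with and -0.13 without, by -0.88 (0.033), a call that was lost in 10 of 20 alternatives, with NT4 alone (-0.59, adjusted p = 0.248) the farthest.

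Of 23 genes of cholesterol synthesis and uptake 7 passed, all higher (1.27% of all genes were higher), with medians of 0.07 with and -0.19 without the CDK4 siRNA. That count depended on the control, with 11 against NT3 alone and 1 against NT4 alone. It was 10 without NT3 replicate 1 and 3 without CDK4 knockdown replicate 3 or CDK6 knockdown replicate 2. It was 4 without CDK4 knockdown replicate 2, CDK6 knockdown replicate 1 or 3, or dual replicate 2 or 3. INSIG1, a feedback inhibitor of sterol synthesis, changed by -0.64 with and -1.25 without (difference 0.61, SE 0.13, limma adjusted p = 0.0152), and FDFT1, squalene synthase, by 0.07 and -0.33 (0.40, SE 0.08, 0.00857). INSIG1 lost its call against NT4 alone (0.27, limma adjusted p = 0.414). FDFT1 was singled out after its values were seen.

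Of 47 interferon-stimulated genes 5 passed in this test, all lower (2.3% of all genes were lower and 1.27% higher). Their medians were -1.53 with and -0.99 without the CDK4 siRNA, and over the alternatives 1 to 16 passed. Of 36 SASP cytokines 3 were lower and 2 higher, with medians of -1.16 and -1.14. That count depended on the control, with 3 lower and 5 higher against NT3 alone and 2 lower and 0 higher against NT4 alone. No gene passed among 27 NF-kB genes (medians -0.76 and -0.59) or among 24 contractile genes (0.57 and 0.62). Against NT3 alone 5 contractile genes passed, 4 of them lower, and over all alternatives at most 2 NF-kB genes did. CXCL8 changed by -3.51 with and -3.15 without (difference -0.36, SE 0.38, limma adjusted p = 0.65), and IL1B by -3.86 and -3.38 (-0.49, SE 0.30, 0.42), so no difference was detectable at these errors. Both turned with the control: CXCL8 gave 0.43 against NT3 alone and -1.16 against NT4 alone, and IL1B 0.25 and -1.22, with no call in either. IRAG1 (1.63 and 1.90; -0.27, SE 0.18, adjusted p = 0.46) did not pass, though it did against NT3 alone (-0.73, adjusted p = 0.0255), and was 0.19 against NT4 alone. C3 (-2.18 and -2.21; 0.03, SE 0.40, adjusted p = 0.98) did not pass either, and the sign of its difference turned in 8 of 20 alternatives. CDK6 itself changed by -2.62 and -2.59 (-0.02, SE 0.14, adjusted p = 0.96).

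Of 27 tested genes on the CDK4/6 pathway list 5 were higher and 4 lower in this test, against 1.27% and 2.3% of all genes. The counts were 7 and 5 against NT3 alone and 3 and 2 against NT4 alone, and 4 to 12 genes passed over the alternatives. The INK4 genes CDKN2B (-0.77 with, -1.66 without; difference 0.89, SE 0.13, limma adjusted p = 0.00064) and CDKN2A (-0.49 and -1.15; 0.67, SE 0.17, 0.033) fell by less with the CDK4 siRNA. SKP2 changed by 0.48 with and -0.20 without (0.68, SE 0.17, adjusted p = 0.031). The calls of CDKN2A and SKP2 were lost in 10 and 9 of the 20 alternatives, with NT4 alone among them (adjusted p = 0.0777 and 0.0893), while that of CDKN2B was kept in all 20. CDK4, already low in both arms of the first difference, changed by 0.12 with and -0.39 without (0.51, SE 0.11, adjusted p = 0.011). E2F4 changed by 0.11 and -0.30 (0.40, SE 0.09, adjusted p = 0.019), and lost its call in 5 alternatives. E2F1 (-1.58 and -0.96; -0.62, adjusted p = 0.043), with RBL1, CDK1 and CCNA2 above, made up the 4 lower genes; the E2F1 call was lost in 13 alternatives (-0.71 to -0.52).

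**Figure D5:**
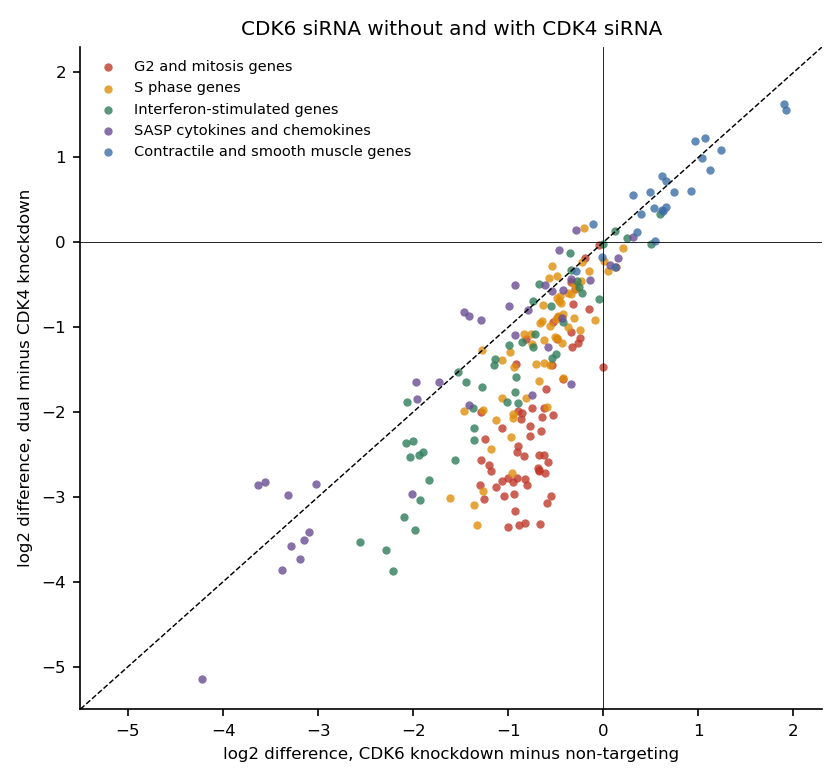
Log2 difference of list members between dual and CDK4 knockdown (y axis) against that between CDK6 knockdown and the mean of both non-targeting groups (x axis), 1 point per gene, with a dashed line of equal change. G2 and mitosis genes (red; medians -2.30 and -0.72) lie below the line, and contractile genes (blue; 0.57 and 0.62) near it.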

How the data were processed

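RNA of 21 IMR90 libraries was sequenced after poly(A) capture, per the labels' protocols. The authors deposited 1 signal per gene and library, named counts per the file headers. The values in each library were whole multiples of a library-specific step (tolerance 0.02, 100% of values in the lowest library), so each is a read count divided by 1 size factor. The submitters' processing notes name Trimmomatic 0.38.1, HISAT2 2.2.1, featureCounts 2.0.3, FastQC 0.74, MultiQC, DESeq2 2.11.40.8 and the build hg38 (GRCh38), with no settings; the annotation and the handling of strand and shared reads are not given in the sources used here. The table lists 16383 genes, 19 without a symbol, with Entrez IDs up to 140467, so genes with higher IDs are not analysed here and totals cover listed genes only.

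Each column header gives a group without a replicate number, and replicates are therefore named in ascending order of the library numbers in the headers, as names only. A linear model of log2(value + 1) was fitted in limma 3.58.1 under R 4.3.3 (trended empirical Bayes, two-sided), with Benjamini-Hochberg adjustment over the 11097 genes and a threshold of 0.05. The interaction used the 15 libraries of NT3, NT4 and the CDK4, CDK6 and dual knockdowns. The main and interaction fits were tested on simulated data with known changes. In the interaction simulation only the dual group was altered, so it does not cover a difference between NT3 and NT4. Targets were also compared by an exact permutation test. edgeR 4.0.16 and DESeq2 1.42.0 were run on the recovered reads as alternatives, next to other pseudocounts, filters, scalings and fits, a block and each library left out. Promoters and coordinates came from RefSeq (GRCh38.p14), and were matched by symbol or gene ID. Library depth was 15433553 to 17044175 reads in the 6 libraries compared, so genes with fewer than about 10 reads carry large counting error.

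Named genes were all measured pathway genes, the 12 largest rises and 12 largest falls among called genes with no overlap between arms and with the larger arm mean above the median gene mean of 496.8, and, in each of 22 lists, the 4 called members of largest change and the most abundant member without a call; a few of these are not reported here. The comparison, members and lists were chosen with earlier results of these data known, so no count over a list is independent evidence. List counts are given beside the share of all genes, without a set test.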

Additional observations from a re-analysis of the deposited data

Results flagged for a closer look

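For 33 of the named genes the change after CDK6 siRNA differed with and without the CDK4 siRNA by limma (interaction, adjusted p under 0.05), which flagged them. Values are log2 differences, the change with minus the change without. A second siRNA or a changed dose cannot be told apart from the CDK4 siRNA in them. Mitotic genes gave MKI67 -2.64, DLGAP5 -2.48, KIF20A -2.48, BUB1 -2.45, BIRC5 -2.35, CENPF -2.07, CDK1 -1.93, TOP2A -1.87, FOXM1 -1.83 and CCNA2 -1.68. Genes of S phase and its control gave RRM2 -2.00, CDC45 -1.73, CLSPN -1.66, DTL -1.40, RBL1 -0.88 and E2F1 -0.62. Other genes lower with the CDK4 siRNA were CMPK2 at -1.66, LMNB1 at -1.28, CD68 at -0.67, MMP1 at -0.57 and DDB2 at -0.48. Pathway genes that were higher were E2F4 at 0.40, CDK4 at 0.51, CDKN2A at 0.67, SKP2 at 0.68 and CDKN2B at 0.89. The remaining genes were CALR at 0.40, GALC at 0.43, LBH at 0.56, MVK at 0.60, INSIG1 at 0.61, ATP5MC1 at 0.62 and KRT18 at 0.71. For CD68 the change was -0.68 with the CDK4 siRNA and -0.01 without it. The latter is against the mean of controls that differed: CD68 was at 1039 to 1101 in CDK6 knockdown, 866 to 951 in NT3 and 1239 to 1378 in NT4. Its difference ran from -0.95 to -0.39 over the alternatives below. Over 20 alternatives (other controls, pseudocount, scaling and fit, and each library left out) 18 of the 33 kept the call in every one and 15 lost it in at least 1. Those lost most often were CMPK2, E2F1, GALC and ATP5MC1, each in 13, RBL1 and CDKN2A in 10, MVK and SKP2 in 9 and CDC45 in 8.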

How the results depend on the processing

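The count of genes changed was 3521 to 4686 over the alternatives that kept the threshold, 4094 with edgeR and 3631 with DESeq2 on the recovered reads, and 3265 to 4158 when each library was left out. A fold change over 1 on the log2 scale as a further demand gave 549, of which 12.8% were higher. The share of calls that were higher was 55.2%, between 51.2% with median centring and 60.9% with a mean of at least 100. For the CDK6 difference the log2 value stayed between -2.72 and -2.56, and for CDK4 between 0.09 and 0.31 without a call. The count of genes whose change differed with and without the CDK4 siRNA was 396, and became 1316 with NT3 alone, 747 in a fit of all 7 groups and 249 to 1143 when each of 15 libraries was left out; the cause was not tested. For the main comparison, signs turned as follows. Quantile normalization gave CCND1 -0.055, LMNA -0.16, CALR -0.12, HGF -0.092, TIMP1 -0.087, CD59 -0.037, COL6A3 -0.025, TPM4 -0.16, CD63 -0.028, RPS4X -0.042, ATP5F1B -0.078, VIM -0.13, CD14 0.21. Median centring gave VIM -0.0087. EdgeR on recovered reads gave VIM -0.0064. DESeq2 on recovered reads gave VIM -0.00799. Leaving out 1 library gave RBL2 -0.043 to 0.075, PRIM2 -0.14 to 0.028, CDC25B -0.17 to 0.061, LMNA -0.0099 to 0.083, RELA -0.0562 to 0.0195, VIM -0.018 to 0.053. For the change with minus the change without the CDK4 siRNA, signs turned as follows. NT3 alone gave CXCL8 0.43, CDK6 0.085, IL1B 0.25. NT4 alone gave IRAG1 0.19, ANO1 0.15, LRRC2 0.068, GPRC5A -0.23, C3 -0.46. Leaving out 1 library gave CXCL8 -0.68 to 0.058, CDK6 -0.12 to 0.049, C3 -0.31 to 0.52. For list medians, signs turned as follows. Leaving out 1 library gave Complement genes -0.065 to 0.012.

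No column carries a replicate number of the labels, so the block planned on those numbers was not run. The library numbers of the 18 siRNA libraries form 3 runs in the same group order, and a replicate block by header numbers was added after seeing the data. It gave 4686 genes, 4141 of them among the 4143, and left CDK6 at -2.62 and CDK4 at 0.12. Of the named genes CALR, CCNG1, CD59, CD63, KRT18, LGALS3BP, RB1, TIMP1 and TPM4 gained a call under it (adjusted p = 0.024 to 0.0487), and no named gene lost one. Same-run libraries of the 2 arms correlated in their deviations at 0.06, 0.02 and 0.03, each above its correlation with the other runs, a hint from the data and not the design. The libraries were not treated as pairs.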

Other observations

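Genes of protein synthesis and respiration showed small rises that the lists above do not cover. Of 73 cytosolic ribosomal protein genes tested, 38 rose (52.1%, against 20.6% of all genes) and 0 fell by limma. The median was 0.15, or 0.03 with quantile normalization, and over the alternatives between 4 and 54 members passed. The arms did not overlap at 27 of the 73, a smaller share than the 47.5% of all genes. RPL37A was at 6327, 6998 and 5975 in CDK4 knockdown and at 8348, 8393 and 7547 in dual knockdown (log2 difference 0.33, SE 0.06, limma adjusted p = 0.000437). RPL22 (0.30), RPL39 (0.27) and RPL26 (0.26) followed; RPL22 and RPL26 lost their calls in a fit of all 7 groups (adjusted p = 0.0733 and 0.117). RPS4X, the most abundant member without a call, differed by 0.09 (adjusted p = 0.201). Of 45 genes of oxidative phosphorylation 19 rose (42.2%) and 1 fell (median 0.16, 7 to 25 members over the alternatives). NDUFA1, NDUFA10, NDUFA4 and ATP5MC1 rose by 0.41, 0.36, 0.35 and 0.34, and ATP5F1B did not pass (0.06, adjusted p = 0.318).

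Of 28 lysosomal genes 11 rose and 5 fell (39.3% and 17.9%, against 20.6% and 16.7% of all genes), with a median of 0.14, or 0.07 with quantile normalization. NPC1, which moves cholesterol out of lysosomes, was at 3313, 2678 and 3033 in CDK4 knockdown and at 1431, 1499 and 1605 in dual knockdown (-0.99, SE 0.07, limma adjusted p = 1.24e-08), and GUSB fell by 0.35. GALC and SMPD1, enzymes of sphingolipid breakdown, rose by 0.52 and 0.32, and CD63 did not pass (0.12, adjusted p = 0.0938), but did without dual replicate 3 (0.16, adjusted p = 0.0276). Of 23 genes of cholesterol synthesis and uptake 4 rose and 2 fell (17.4% and 8.7%, neither above the share of all genes), with a median of 0.07, between 0.05 and 0.11 when each library was left out. INSIG1, a feedback inhibitor of the pathway, fell from 680 to 791 to 430 to 522 (-0.64), and LSS and MVK rose by 0.61 and 0.41. MVK lost its call without CDK4 knockdown replicate 3 or dual replicate 1 or 2.

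At a few of the genes tested, among those with a value of at least 100 in the arm, 1 library stood more than 3 apart on the log2 scale from the others of its group. In CDK4 knockdown these were PTPRK (replicate 1), RNH1, CUTA and DDX24 (replicate 2) and SLC25A6 (replicate 3), and in dual knockdown CUTA (replicate 2) and LY6E, CD99 and PTPRK (replicate 3). CDK7, below the filter, was at 213 in dual replicate 1 and at 8.83 and 4.37 in the others. CD99 was also high in 1 proliferating library (1315) and 1 CCND1 knockdown library (782), against 13.3 to 55.3 in the rest of the 21 besides the dual library at 1713. No cause of these values was tested.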
